A study of Gallus gallus with 24 samples.

Results

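Cells of a tissue are held together by membrane proteins that bind the same kind of protein on the neighbouring cell. The genes described here encode such proteins and their partners inside the cell: cadherins, protocadherins, claudins, the proteins of desmosomes, and catenins. Members were the rows of the expression table whose symbol began with CDH, PCDH, CLDN, DSC, DSG, PKP or CTNN followed by the number or letter of the family, together with DSP and JUP. Symbols of 53 genes fitted these patterns, and 2 of them, CDH5 and CLDN5 of endothelium, were left out, which gave 51 of the 12422 genes with a symbol. They comprised 15 cadherins, 14 protocadherins, 8 claudins, 7 desmosomal genes (DSC1, DSG2, DSP, JUP, PKP2, PKP3 and PKP4) and 7 catenin and catenin-like genes (CTNNA1, CTNNA2, CTNNA3, CTNNAL1, CTNNB1, CTNNBL1 and CTNND1).

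The samples were the sinoatrial node (SAN), the pacemaker tissue of the heart, and right atrial tissue, dissected from chick embryos at Hamburger-Hamilton stage 30 (embryonic day 6). No transgene or mutation was involved. In each tissue, 3 conditions were sequenced as bulk RNA: culture for 14 h with 0.25 ug/ml CN03, a cell-permeable activator of the small GTPase RhoA; culture for 14 h with vehicle (water); and freshly isolated tissue (t0). Both culture conditions shared the medium, a DMEM/F12 base with fetal bovine serum. Each of the 6 groups had 4 libraries, and each library was a pool of 5 tissue preparations, so values describe pools and not single embryos. In bulk tissue, fewer cells of a type and less RNA per cell cannot be told apart.

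As background, classical cadherins such as CDH2 bind across the cell border through their outer part, and their tail holds beta-catenin or plakoglobin, which alpha-catenins join to actin. Desmosomal cadherins use plakoglobin, plakophilins and desmoplakin to reach desmin filaments. In heart muscle both kinds of contact meet in the intercalated disc, where alpha-T-catenin (CTNNA3) and plakophilin 2 (PKP2) bind each other in mammals. Claudins form the strands of tight junctions in epithelia, and most protocadherins are known from the nervous system, where they set which cells adhere and sort together.

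The values were log2 normalized expression as the authors deposited them, at unknown depth. Libraries of a group correlated with r = 0.977 to 0.992 across genes. The RhoA-responsive genes ANKRD1, CYR61 and CCN2 were higher with CN03 in both tissues, with log2 fold changes of 3.65 to 6.92 in SAN and 5.0 to 10.22 in atria. All 4 pacemaker markers listed (SHOX2, HCN4, ISL1 and TBX3) were higher in SAN than in atria at t0 and with vehicle, and 3 of 4 with CN03. Their summed linear value at t0 was 235 to 511 in SAN and 23.4 to 27.3 in atria. The atrial libraries held more cardiomyocyte marker signal: 5 of 7 markers were lower in SAN at t0, and their summed linear value was 7200 to 11000 in SAN and 20300 to 28000 in atria. Leukocyte markers moved with CN03, with 7 of 8 lower in SAN (summed value 22 to 28.0 with CN03 and 127 to 155 with vehicle) and 6 of 8 lower in atria (21.7 to 22.8 with CN03 and 47.8 to 82.7 with vehicle). Of 7 epicardial and mesothelial markers, 3 were lower and 0 higher with CN03 in SAN. In atria 5 of 7 were lower and 2 higher (UPK1B at 1.21 and SEMA3D at 1.83). The part of these shifts in the results below was not tested.

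One library stood apart for members of this group of genes. In replicate 1 of vehicle-treated SAN, 15 genes lay more than 2 log2 units above the highest of the other 3 pools, against 0 to 4 genes in the other 23 libraries, and 2 of the 15 were members, CDH1 and CLDN1. EPCAM, an epithelial adhesion gene, was at 5.26 in that pool and at 1.26, 0.76 and 1.11 in the others, UPK1B, a mesothelial marker, at 4.08 against 1.53, 1.55 and 1.49, and EVPL, a desmosome-linked protein of stratified epithelia, at 3.80 against -1.23, -1.53 and -2.52. These 3 genes were chosen after their values were seen. Of the other epithelial and mesothelial markers measured, KRT8, KRT18, WT1, TCF21, ALDH1A2, BNC1, MSLN and SEMA3D were not among the 15. Results for CDH1 and CLDN1 that use vehicle-treated SAN are given with and without that pool.

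No member sat at the lowest value of the table in any library, but many had low values. The median of the members' mean log2 values was 2.99, beside 4.69 over all genes, and 5 members had a mean below 0. Of the 82 protein-coding symbols in the chicken gene table (assembly GRCg7b, the build of the files) that fit the patterns, 53 were in the expression table. The other 29, among them CDH12, CLDN3, CLDN4, DSG4, PKP1 and most clustered protocadherins, were not analysed here. All 51 members matched the gene table by symbol and lay on 13 chromosomes, with 13 on chromosome 2. Several were neighbours: CDH3 (chromosome 11, 18511388 to 18517067) and CDH1 (18517669 to 18526385) lay 601 bases apart, and CDH2 (chromosome 2, 104411911 to 104526394), DSC1 (105599471 to 105623599) and DSG2 (105747712 to 105770551) followed each other with 1 other coding gene among them. PCDHA6 and PCDHGC3 belong to protocadherin clusters whose transcripts share 3' exons in vertebrates, so reads can be split between cluster members and their values are uncertain.

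A gene was called changed at a Benjamini-Hochberg adjusted p under 0.05 in limma over all 12422 genes together with a log2 fold change past 1 in either direction. With CN03, 9 members were higher and 11 lower than with vehicle in SAN, where 10.2% and 17.1% of all genes were called higher and lower. In atria 12 members were higher and 8 lower, beside 13.8% and 15.6% of all genes. The median log2 fold change over the 51 members was -0.01 in SAN and 0.01 in atria, beside -0.06 and -0.01 over all genes. By family, CN03 in SAN gave 1 higher and 6 lower cadherins, 4 and 3 protocadherins, 1 and 2 claudins, 2 and 0 desmosomal genes, and 1 and 0 catenins. In atria these counts were 4 and 4 cadherins, 4 and 1 protocadherins, 1 and 1 claudins, 2 and 2 desmosomal genes, and 1 and 0 catenins. Under quantile normalization the SAN split was 9 higher and 5 lower. The libraries of the 2 tissues are separate, and 8 members were higher in both: CDH13, CLDN1, JUP, PCDH8, PCDH9, PCDH11X, PCDH19 and PKP2. Another 6 were lower in both: CDH8, CDH10, CDH20, CDH22, CLDN15 and PCDH15. Of all genes, 8.18% were higher in both tissues and 11.8% lower in both, while the members' shares were 15.7% and 11.8%. Under quantile normalization 5 of the 8 remained higher in both (CLDN1, PCDH8, PCDH9, PCDH11X and PCDH19) and 3 of the 6 lower (CDH10, CDH20 and CDH22), beside 9.25% and 9.02% of all genes. With a pseudocount of 1, all 8 remained higher in both and 2 of the 6 lower (CDH8 and CDH22), beside 7.04% and 8.28%. None was called in opposite directions, 6 were called in SAN alone, 6 in atria alone, and 25 in neither. Across members the log2 fold changes of the 2 tissues had a Pearson r of 0.835 (n = 51 genes), beside 0.863 over all 12422 genes. Genes are not independent replicates and share the libraries.

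**Figure D1:**
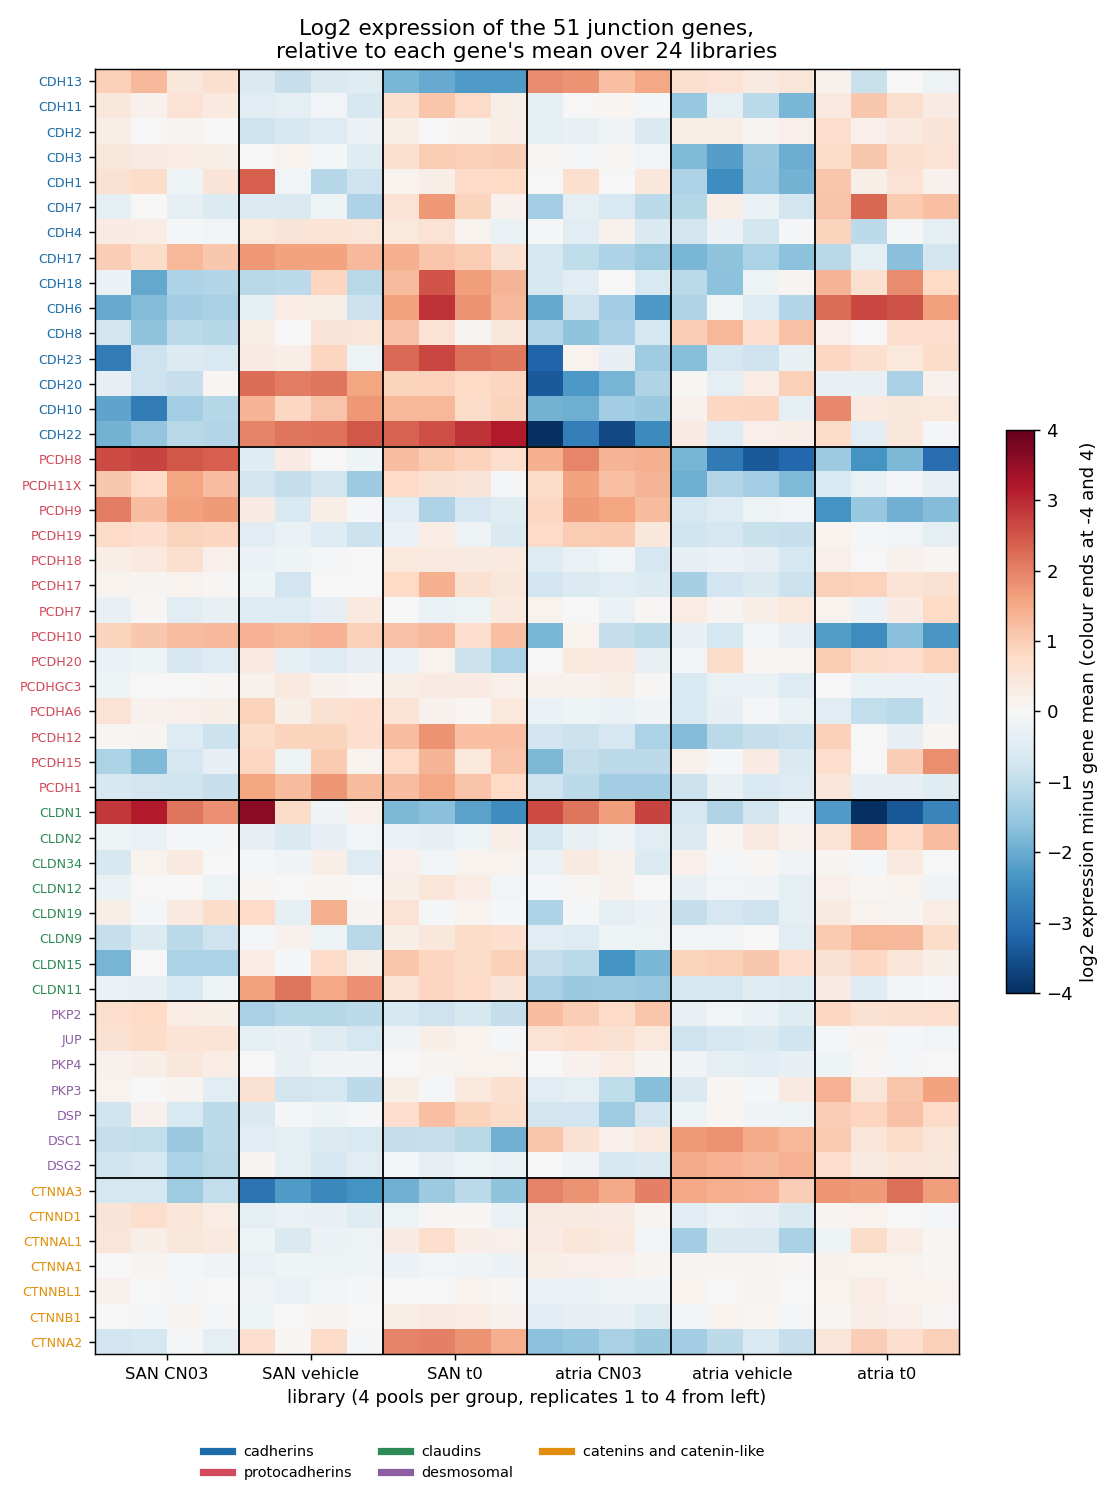
Log2 expression of the 51 members (rows, by family, ordered within a family by the log2 fold change with CN03 in SAN) in the 24 libraries (columns, by group), each gene relative to its mean over all libraries. PCDH8 and CLDN1 are among the members above their mean in all CN03 libraries, CDH22 is below it in all 8 CN03 libraries, and CLDN1 in replicate 1 of vehicle-treated SAN stands out at 6.58 before centring.

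Culture with vehicle, set against fresh tissue, moved more members down than up. In SAN 4 members were higher and 11 lower with vehicle than at t0, beside 8.01% and 5.59% of all genes. In atria 3 were higher and 15 lower, beside 10.1% and 9.02%. The median over the members was -0.27 in SAN and -0.51 in atria, beside -0.02 and -0.00 over all genes. CLDN1 was the one member higher in both tissues, and 9 were lower in both: CDH6, CDH7, CDH11, CDH18, CDH23, CTNNA2, DSP, PCDH11X and PCDH17. Of all genes, 5.84% were higher and 4.28% lower in both. A pseudocount of 1 left 6 of the 9 lower in both, beside 2.95% of all genes, and under quantile normalization all 9 did. Markers of other cell types moved too: with vehicle against t0, 5 of 8 endothelial, 3 of 7 epicardial and 2 of 4 epithelial markers, CDH1 among the last, were lower in atria, and 2 of 8, 1 of 7 and 1 of 4 in SAN. The summed linear value of the endothelial markers was 289 to 377 with vehicle and 538 to 717 at t0 in atria, and 545 to 604 with vehicle and 704 to 1020 at t0 in SAN. The part of these shifts in the members' falls was not tested. These comparisons share the vehicle libraries with those for CN03, so a high or low vehicle pool enters both with opposite sign.

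Between tissues, more members were called higher than lower in SAN in the values as deposited, and at t0 and with vehicle so were more of all genes. The share higher in SAN among called genes was 62.5% for members and 70.5% for all genes at t0. With vehicle these shares were 76.5% and 69.5%, and with CN03 77.8% and 48.5%. At t0, 10 members were higher and 6 lower in SAN than in atria, beside 6.86% and 2.87% of all genes. With vehicle 13 were higher and 4 lower, beside 7.66% and 3.36%, and with CN03 7 were higher and 2 lower, beside 3.84% and 4.07%. The medians over members were 0.11, 0.29 and 0.21 at t0, with vehicle and with CN03, beside 0.02, 0.01 and -0.00 over all genes. Under quantile normalization the vehicle split was 12 higher and 7 lower. The 3 conditions share no library, and 6 members were higher in SAN in all of them (CDH17, CDH20, CDH22, CTNNA2, PCDH8 and PCDH10) and 2 lower (CTNNA3 and DSC1), beside 1.96% and 0.918% of all genes. At a pseudocount of 1 the split with CN03 was 2 higher and 2 lower, beside 223 and 363 of all 12422 genes. CDH17 and PCDH10 then remained higher in all 3 conditions, beside 0.886% of all genes. Under quantile normalization CDH17, CDH22 and PCDH10 remained, beside 1.30%. CTNNA3 and DSC1 remained lower under both. With vehicle, 5 of 8 endothelial and 5 of 8 leukocyte markers were higher in SAN than in atria and 0 lower, with summed linear values of 545 to 604 in SAN and 289 to 377 in atria for endothelium and of 127 to 155 in SAN and 47.8 to 82.7 in atria for leukocytes. Their part in the members' tissue difference was not tested.

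The main cadherin of heart muscle, CDH2 (N-cadherin), had differences between CN03 and vehicle of opposite sign in the 2 tissues. In SAN, CDH2 was at 8.97, 8.75, 8.85 and 8.76 with CN03, 7.93, 8.11, 8.24 and 8.51 with vehicle, and 8.97, 8.76, 8.85 and 9.02 at t0. The CN03 pools all lay above the vehicle pools and overlapped the fresh pools. In atria, CDH2 was at 8.35, 8.45, 8.62 and 8.18 with CN03, 9.02, 9.0, 8.86 and 8.94 with vehicle, and 9.44, 8.95, 9.15 and 9.25 at t0, and here the CN03 pools all lay below the vehicle pools. The log2 fold change with CN03 was 0.63 (SE 0.112, adjusted p = 2.49e-05) in SAN and -0.55 (SE 0.112, adjusted p = 0.000117) in atria, both within the fold limit. The difference between these responses, SAN minus atria as for all such differences given here, was 1.19 (SE 0.159, adjusted p = 9.79e-06). Vehicle culture against t0 gave -0.70 (SE 0.112, adjusted p = 1.67e-05) in SAN and -0.24 (SE 0.112, adjusted p = 0.0695) in atria.

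Alpha-T-catenin, CTNNA3, which links cadherins to actin and is known in mammals from heart muscle, differed most between tissues among members called lower in SAN. In SAN, CTNNA3 was at 5.42, 5.43, 4.70 and 5.14 with CN03, 3.21, 3.85, 3.55 and 3.73 with vehicle, and 4.21, 4.67, 5.06 and 4.52 at t0. In atria, CTNNA3 was at 8.11, 7.90, 7.62 and 8.12 with CN03, 7.66, 7.56, 7.51 and 7.09 with vehicle, and 7.88, 7.81, 8.31 and 7.78 at t0. Every SAN pool lay below every atrial pool. The log2 fold change of SAN over atria was -2.77 (SE 0.184, adjusted p = 1.44e-10) with CN03, -3.87 (SE 0.184, adjusted p = 1.91e-13) with vehicle and -3.33 (SE 0.184, adjusted p = 2.19e-12) at t0. With CN03 the gene rose in SAN, by 1.59 (SE 0.184, adjusted p = 6.16e-08), with no overlap of pools, and its value in atria was 0.49 (SE 0.184, adjusted p = 0.0215) with overlapping pools. The responses differed by 1.10 (SE 0.261, adjusted p = 0.00299). In vehicle culture it fell in SAN against t0, with a log2 fold change of -1.03 (SE 0.184, adjusted p = 6.90e-05), which was -0.88 and -0.90 without replicate 3 of fresh and replicate 1 of vehicle-treated SAN and -0.97 with a pseudocount of 1. Of 7 cardiomyocyte markers, 5 with CN03, 4 with vehicle and 5 at t0 were lower in SAN than in atria. With CN03 in SAN, 1 was higher and 2 lower, with a median log2 fold change of -0.41 over the 7. The higher marker was ACTC1 (1.78), which the study lists among targets that RhoA activates. In SAN the summed linear value of the markers was 10400 to 12600 with CN03 and 7870 to 11700 with vehicle. Their part in the CTNNA3 result was not tested.

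The remaining core catenins were called in neither CN03 comparison. CTNNA1 (alpha-E-catenin, the widely expressed actin link) was at 8.78, 8.86, 8.67 and 8.63 with CN03, 8.49, 8.59, 8.56 and 8.59 with vehicle, and 8.53, 8.65, 8.62 and 8.52 at t0 in SAN. In atria it was at 8.99, 8.97, 8.97 and 8.88 with CN03, 8.88, 8.86, 8.87 and 8.81 with vehicle, and 8.92, 8.89, 8.91 and 8.85 at t0. The CN03 pools of SAN lay just above the vehicle pools. Its log2 fold change with CN03 was 0.18 (SE 0.0587, adjusted p = 0.0101) in SAN and 0.10 (SE 0.0587, adjusted p = 0.142) in atria, signs that turned under quantile normalization to -0.10 and -0.20. CTNNB1 (beta-catenin, which also carries Wnt signals to the nucleus) was at 9.67, 9.64, 9.79 and 9.61 with CN03, 9.52, 9.71, 9.81 and 9.70 with vehicle, and 9.95, 10.02, 9.98 and 9.87 at t0 in SAN. In atria it was at 9.23, 9.35, 9.39 and 9.20 with CN03, 9.57, 9.82, 9.76 and 9.63 with vehicle, and 9.78, 9.96, 9.91 and 9.74 at t0, with every CN03 pool below every vehicle pool. Its log2 fold change was -0.40 (SE 0.0785, adjusted p = 8.30e-05) in atria and -0.01 (SE 0.0785, adjusted p = 0.914) in SAN, where the sign turned under median centring (0.04), and the responses differed by 0.39 (SE 0.111, adjusted p = 0.0112).

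CTNND1 (p120-catenin, which keeps cadherins at the membrane) was at 8.57, 8.76, 8.52 and 8.35 with CN03, 7.69, 7.80, 7.76 and 7.56 with vehicle, and 7.86, 8.10, 8.10 and 7.78 at t0 in SAN. In atria it was at 8.41, 8.40, 8.38 and 8.17 with CN03, 7.62, 7.79, 7.72 and 7.48 with vehicle, and 8.15, 8.20, 8.05 and 7.99 at t0. In both tissues the CN03 pools lay above all vehicle pools, with log2 fold changes of 0.85 (SE 0.0927, adjusted p = 2.31e-08) in SAN and 0.69 (SE 0.0927, adjusted p = 5.14e-07) in atria, under the fold limit. Alpha-N-catenin (CTNNA2), known from neurons, was higher in SAN than in atria by 1.02 with CN03, 1.37 with vehicle and 1.02 at t0 (0.86 with CN03 and 0.98 at t0 with a pseudocount of 1, and as low as 0.88 without replicate 3 of CN03-treated SAN and 0.92 without replicate 1 of fresh atria), and lower with vehicle than at t0 with a log2 fold change of -1.43 in SAN and -1.78 in atria. CTNNAL1 (alpha-catulin, an alpha-catenin relative) rose with CN03 in atria, by 1.23 (SE 0.192, adjusted p = 4.49e-06), and had 0.70 (SE 0.192, adjusted p = 0.00232) in SAN, under the fold limit. Its group means with CN03, with vehicle and at t0 were 5.08, 3.85 and 5.04 in atria and 5.21, 4.50 and 5.20 in SAN. In atria CTNNAL1 was called lower with vehicle than at t0. CTNNBL1, which shares a name with beta-catenin but is known as a nuclear protein of the splicing machinery, had log2 fold changes with CN03 of 0.17 in SAN and -0.26 in atria, which differed by 0.43 (SE 0.0935, adjusted p = 0.00135).

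In the desmosome, JUP and PKP2 rose with CN03 in both tissues, and the desmosomal cadherins DSG2 and DSC1 fell in atria. JUP (plakoglobin, shared by desmosomes and adherens junctions) was at 7.86, 7.99, 7.81 and 7.79 with CN03, 6.89, 6.95, 6.78 and 6.54 with vehicle, and 7.12, 7.48, 7.38 and 7.21 at t0 in SAN. In atria, JUP was at 7.84, 7.94, 7.87 and 7.68 with CN03, 6.44, 6.54, 6.69 and 6.45 with vehicle, and 7.17, 7.36, 7.18 and 7.15 at t0. The CN03 pools lay above all vehicle and all fresh pools in both tissues. It rose by 1.07 (SE 0.0900, adjusted p = 2.80e-10) in SAN and 1.30 (SE 0.0900, adjusted p = 6.87e-12) in atria. The SAN value stood close to the fold limit and was 0.99 without replicate 4 of vehicle-treated SAN. Under quantile normalization the values were 0.88 in SAN and 1.00 in atria, past the limit in neither tissue.

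PKP2 (plakophilin 2, which anchors desmoplakin and in humans is often mutated in arrhythmogenic cardiomyopathy) was at 7.86, 7.96, 7.45 and 7.38 with CN03, 5.86, 6.01, 6.01 and 6.10 with vehicle, and 6.51, 6.33, 6.51 and 6.21 at t0 in SAN. In atria, PKP2 was at 8.38, 8.14, 7.94 and 8.26 with CN03, 6.87, 7.05, 6.88 and 6.69 with vehicle, and 7.98, 7.78, 7.79 and 7.87 at t0. In SAN every CN03 pool exceeded every other SAN pool. In atria every CN03 pool exceeded every vehicle pool, and the CN03 pools overlapped the fresh pools. It rose with CN03 by 1.67 (SE 0.115, adjusted p = 9.84e-12) in SAN and 1.31 (SE 0.115, adjusted p = 4.64e-10) in atria, where it was 0.97 under quantile normalization. SAN lay below atria at t0 with a log2 fold change of -1.47 (SE 0.115, adjusted p = 6.88e-10), and the same contrast gave -0.88 (SE 0.115, adjusted p = 1.56e-06) with vehicle and -0.52 (SE 0.115, adjusted p = 0.00104) with CN03. The culture response of the 2 tissues differed by 0.59 (SE 0.162, adjusted p = 0.0176). Group means were lower with vehicle than at t0 in both, at 5.99 and 6.39 in SAN and at 6.87 and 7.86 in atria. The atrial culture value of -0.99 stood at the fold limit. It was -1.01 without replicate 2 or 3 of fresh atria and -1.04 without replicate 2 of vehicle-treated atria. PKP4 (p0071, a plakophilin relative found at adherens junctions too) was at 6.38, 6.44, 6.64 and 6.50 with CN03, 6.21, 5.91, 6.05 and 6.05 with vehicle, and 6.22, 6.32, 6.33 and 6.33 at t0 in SAN. In atria, PKP4 was at 6.18, 6.36, 6.50 and 6.30 with CN03, 6.05, 5.81, 5.74 and 5.87 with vehicle, and 6.02, 6.25, 6.14 and 6.20 at t0. Within each tissue all CN03 pools lay above all vehicle pools. The log2 fold changes were 0.43 (SE 0.0814, adjusted p = 5.21e-05) in SAN and 0.47 (SE 0.0814, adjusted p = 1.72e-05) in atria, under the fold limit.

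DSP (desmoplakin, the link to intermediate filaments) was at 7.25, 8.22, 7.44 and 7.02 with CN03, 7.48, 8.01, 7.89 and 7.99 with vehicle, and 8.74, 9.27, 8.94 and 8.80 at t0 in SAN. In atria, DSP was at 7.31, 7.28, 6.63 and 7.28 with CN03, 7.85, 8.12, 7.90 and 7.86 with vehicle, and 9.04, 8.92, 9.22 and 8.82 at t0. Fresh pools of both tissues lay above all cultured pools. DSP fell with vehicle culture, with log2 fold changes of -1.10 (SE 0.192, adjusted p = 5.34e-05) in SAN and -1.07 (SE 0.192, adjusted p = 4.81e-05) in atria. In SAN this was -0.99 and -0.97 without replicate 2 of fresh and replicate 1 of vehicle-treated SAN, and the atrial call also ended without replicate 3 of fresh atria. With CN03 against vehicle it was -0.36 (SE 0.192, adjusted p = 0.0986) in SAN, where pools overlapped, and -0.81 (SE 0.192, adjusted p = 0.000662) in atria, where they did not.

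DSG2 (desmoglein 2, the desmoglein of heart muscle in mammals) was at 4.44, 4.54, 3.97 and 4.15 with CN03, 5.35, 4.90, 4.58 and 4.79 with vehicle, and 5.18, 4.92, 5.04 and 4.97 at t0 in SAN. In atria, DSG2 was at 5.27, 5.12, 4.55 and 4.68 with CN03, 6.74, 6.65, 6.54 and 6.64 with vehicle, and 5.96, 5.61, 5.73 and 5.70 at t0. The vehicle pools of atria were the highest of the 24 libraries, and the CN03 pools of each tissue lay below its vehicle pools. With CN03 it fell in atria, with a log2 fold change of -1.73 (SE 0.155, adjusted p = 6.18e-10), and had -0.63 (SE 0.155, adjusted p = 0.000876) in SAN, a difference between tissues of 1.10 (SE 0.219, adjusted p = 0.000628). Vehicle culture gave -0.12 (SE 0.155, adjusted p = 0.527) in SAN and 0.89 (SE 0.155, adjusted p = 3.06e-05) in atria, a difference of -1.02 (SE 0.219, adjusted p = 0.00288). This difference and that for CN03 use the same vehicle libraries, with opposite sign. With vehicle, SAN lay below atria with a log2 fold change of -1.74 (SE 0.155, adjusted p = 5.03e-09).

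DSC1 (desmocollin 1, neighbour of DSG2 on chromosome 2 and in mammals mainly a gene of skin) was at 2.07, 2.02, 1.52 and 1.91 with CN03, 2.53, 2.65, 2.44 and 2.37 with vehicle, and 2.03, 2.07, 1.87 and 1.07 at t0 in SAN. In atria, DSC1 was at 4.09, 3.60, 3.19 and 3.39 with CN03, 4.70, 4.80, 4.49 and 4.33 with vehicle, and 4.03, 3.48, 3.72 and 3.48 at t0. Each SAN pool lay below each atrial pool, with log2 fold changes of -1.68 (SE 0.205, adjusted p = 9.54e-07) with CN03, -2.08 (SE 0.205, adjusted p = 2.42e-08) with vehicle and -1.92 (SE 0.205, adjusted p = 9.64e-08) at t0. With CN03 it fell in atria with a log2 fold change of -1.01 (SE 0.205, adjusted p = 0.000117) and had -0.61 (SE 0.205, adjusted p = 0.0103) in SAN. The atrial fall stood at the fold limit: it was -0.88 under quantile normalization, -0.95 with a pseudocount of 1, and -0.89, -0.95, -0.97 and -0.94 without replicates 3 and 4 of CN03-treated or replicates 1 and 2 of vehicle-treated atria. DSC1 was the only desmocollin among the coding symbols of the gene table that fit the patterns, and DSC2, listed for heart muscle, was not measured. PKP3, the remaining desmosomal member, had log2 fold changes with CN03 of 0.41 in SAN and -0.82 in atria (adjusted p = 0.294 and 0.0403), and under quantile normalization it was called higher in SAN, at 1.66 (adjusted p = 0.000302).

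**Figure D2:**
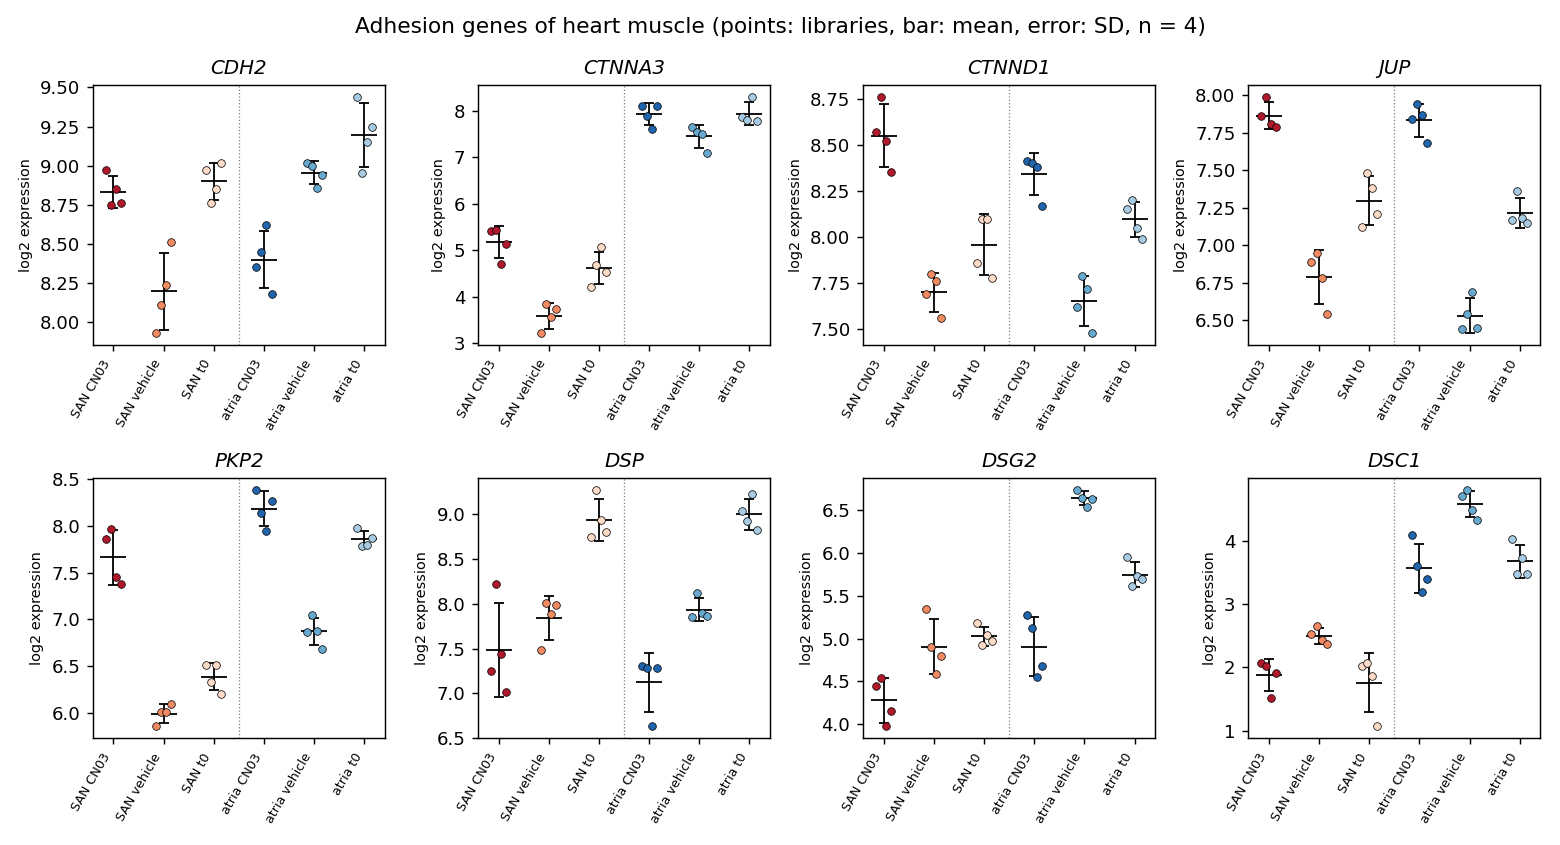
Log2 expression (vertical axes, each with its own range) of 8 adhesion genes in the 6 groups, with a point for each library and the mean and SD of the 4 libraries. CN03 pools of JUP, PKP2 and CTNND1 lie above vehicle pools in both tissues, CDH2 parts by tissue, and CTNNA3 and DSC1 are lower in every SAN pool than in every atrial pool.

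Further cadherins listed for heart muscle and its mesenchyme were CDH4, CDH11 and CDH13. CDH13 (T-cadherin, which is held by a lipid anchor and lacks the tail that binds catenins) was at 6.72, 7.09, 6.24 and 6.41 with CN03, 5.19, 4.87, 5.20 and 5.29 with vehicle, and 3.94, 3.75, 3.52 and 3.52 at t0 in SAN. In atria, CDH13 was at 7.66, 7.57, 6.97 and 7.32 with CN03, 6.43, 6.35, 6.15 and 6.27 with vehicle, and 5.96, 4.88, 5.80 and 5.57 at t0. In SAN the 3 conditions did not overlap, with CN03 highest and t0 lowest. CDH13 rose with CN03 by 1.48 (SE 0.194, adjusted p = 4.05e-07) in SAN and 1.08 (SE 0.194, adjusted p = 2.82e-05) in atria, and with vehicle over t0 by 1.45 (SE 0.194, adjusted p = 1.54e-06) in SAN, while the atrial culture value was 0.75 (SE 0.194, adjusted p = 0.00199). Without replicate 1 of CN03-treated atria the atrial CN03 value was 0.98, and under quantile normalization it was 0.82. SAN lay below atria with log2 fold changes of -1.16 with vehicle and -1.87 at t0 (adjusted p = 3.75e-05 and 6.52e-08), and of -0.77 with CN03, where pools overlapped.

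CDH11 (OB-cadherin, known from mesenchyme) was at 7.57, 7.26, 7.68 and 7.50 with CN03, 6.64, 6.72, 7.0 and 6.45 with vehicle, and 7.74, 8.21, 7.86 and 7.34 at t0 in SAN. In atria, CDH11 was at 6.73, 7.10, 7.19 and 7.02 with CN03, 5.58, 6.75, 6.03 and 5.28 with vehicle, and 7.48, 8.19, 7.73 and 7.44 at t0. Vehicle pools were the lowest of the 3 conditions in SAN, and in atria they lay below all fresh pools. It fell with vehicle culture, with log2 fold changes of -1.09 (SE 0.229, adjusted p = 0.000382) in SAN and -1.80 (SE 0.229, adjusted p = 4.51e-07) in atria, and with CN03 it rose in atria by 1.10 (SE 0.229, adjusted p = 0.000163) with overlapping pools and had 0.80 (SE 0.229, adjusted p = 0.00334) in SAN. The atrial CN03 value was 0.99 and 0.89 without replicates 1 and 4 of vehicle-treated atria and 0.85 under quantile normalization, and the SAN culture value was -0.94 without replicate 2 of fresh SAN. Of 8 fibroblast and mesenchyme markers, 1 was higher and 3 lower with CN03 in atria, with a summed linear value of 3170 to 4300 with CN03 and 4050 to 5640 with vehicle. Their part in the CDH11 result was not tested.

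CDH4 (R-cadherin, a classical cadherin known from retina and other neural tissue) was at 2.85, 2.84, 2.48 and 2.43 with CN03, 2.94, 3.04, 3.07 and 3.01 with vehicle, and 2.96, 3.10, 2.68 and 2.27 at t0 in SAN. In atria, CDH4 was at 2.49, 2.07, 2.69 and 1.95 with CN03, 1.81, 2.30, 1.81 and 2.44 with vehicle, and 3.42, 1.47, 2.49 and 2.14 at t0. In SAN the CN03 pools lay just below the vehicle pools, and the other conditions of each tissue overlapped. No comparison called it. With CN03 the log2 fold change was -0.36 (SE 0.277, adjusted p = 0.244) in SAN, a sign that turned to 0.05 under quantile normalization, and 0.21 (SE 0.277, adjusted p = 0.503) in atria.

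The neighbouring epithelial cadherins CDH1 and CDH3 were both low with vehicle in atria and higher with CN03 and at t0. This order was not particular to them. Vehicle also had the lowest atrial group mean for CDH11, CTNNAL1, CTNND1, JUP, PCDH11X, PCDH19 and PKP2, among other members. CDH3 (P-cadherin) was at 6.83, 6.69, 6.66 and 6.61 with CN03, 6.38, 6.51, 6.31 and 5.90 with vehicle, and 7.0, 7.39, 7.33 and 7.35 at t0 in SAN. In atria, CDH3 was at 6.41, 6.31, 6.43 and 6.26 with CN03, 4.62, 4.17, 4.88 and 4.39 with vehicle, and 7.10, 7.46, 7.02 and 6.94 at t0. Atrial vehicle pools lay more than 1 log2 unit below every other pool. In atria it rose with CN03 by 1.84 (SE 0.137, adjusted p = 2.77e-11) and fell with vehicle culture, with a log2 fold change of -2.61 (SE 0.137, adjusted p = 2.76e-13). In SAN the same contrasts gave 0.42 (SE 0.137, adjusted p = 0.00895) and -0.99 (SE 0.137, adjusted p = 2.70e-06). The tissues differed in both responses, by -1.42 (SE 0.194, adjusted p = 1.26e-05) for CN03 and 1.62 (SE 0.194, adjusted p = 5.44e-06) for culture. Both differences use the same vehicle libraries, with opposite sign, and are not separate findings. SAN exceeded atria with vehicle by 1.76 (SE 0.137, adjusted p = 6.50e-10), and the contrast gave 0.34 with CN03 and 0.14 at t0 (adjusted p = 0.0521 and 0.468).

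CDH1 (E-cadherin, the cadherin of most epithelia) was at 2.98, 3.09, 2.19 and 2.90 with CN03, 4.75, 2.25, 1.23 and 1.54 with vehicle, and 2.50, 2.65, 3.14 and 3.18 at t0 in SAN. In atria, CDH1 was at 2.34, 3.01, 2.38 and 2.82 with CN03, 1.12, -0.10, 0.85 and 0.48 with vehicle, and 3.47, 2.59, 2.96 and 2.54 at t0. Atrial vehicle pools were below all other atrial pools, and replicate 1 of vehicle-treated SAN was the highest of the 24 libraries. In atria CDH1 rose with CN03 by 2.05 (SE 0.478, adjusted p = 0.000532) and fell with vehicle culture, with a log2 fold change of -2.30 (SE 0.478, adjusted p = 0.000243). In SAN the CN03 contrast gave 0.35 (SE 0.478, adjusted p = 0.526) over all pools and 1.11 (SE 0.303, adjusted p = 0.00244) without replicate 1 of the vehicle group, which passes the call. The culture contrast in SAN gave -0.42 (SE 0.478, adjusted p = 0.478) over all pools and -1.19 (SE 0.303, adjusted p = 0.00255) without it. SAN against atria with vehicle was 1.86 (SE 0.478, adjusted p = 0.00303) over all pools and 1.09 (SE 0.303, adjusted p = 0.00667) without it. The difference between tissues in the CN03 response did not pass, with -1.71 (adjusted p = 0.0641) over all pools and -0.94 (adjusted p = 0.102) without it. EPCAM was higher with CN03 in both tissues, by 1.89 (SE 0.575, adjusted p = 0.00536) in SAN over all pools, 2.95 (SE 0.226, adjusted p = 1.30e-10) in SAN without that pool, and 1.87 (SE 0.575, adjusted p = 0.00577) in atria. Other epithelial markers went both ways with CN03: KRT18 was at 0.76 in SAN and 0.51 in atria, and KRT8 at -0.69 and -0.42. These had adjusted p under 0.05 but stayed within the fold limit. Of the 8 epithelial markers listed, KRT19, GRHL2, ESRP1 and CLDN4 were not in the table, and the summed linear value of the 4 measured, CDH1 among them, was 254 to 421 with CN03 and 290 to 390 with vehicle in SAN, and 273 to 329 with CN03 and 227 to 323 with vehicle in atria. Their part in the CDH1 result was not tested.

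Type II cadherins are known chiefly from the nervous system and neural crest, and 8 were among the members. With CN03, 4 of the 8 (CDH8, CDH10, CDH20 and CDH22) fell in both tissues, beside 11.8% of all genes. At a pseudocount of 1, CDH8 and CDH22 remained, beside 8.28% of all genes, and under quantile normalization CDH10, CDH20 and CDH22, beside 9.02%. CDH6 fell in SAN, CDH11, described above, rose in atria, and CDH7 and CDH18 were called in neither. CDH5, a type II cadherin of endothelium, was left out of the members. With CN03 it rose in atria by 1.99 (limma adjusted p = 4.58e-09) and was at 0.03 in SAN, not called. CDH22 changed most among members called lower in each tissue. In SAN, CDH22 was at -0.28, 0.03, 0.50 and 0.45 with CN03, 3.60, 3.77, 3.79 and 4.10 with vehicle, and 3.97, 4.19, 4.51 and 4.78 at t0. In atria, CDH22 was at -4.40, -1.13, -2.01 and -0.94 with CN03, 1.94, 1.09, 1.81 and 1.89 with vehicle, and 2.34, 1.15, 2.07 and 1.54 at t0. The CN03 pools lay below all others of their tissue, and SAN above atria in each condition. With CN03 the log2 fold change was -3.64 (SE 0.472, adjusted p = 3.30e-07) in SAN and -3.80 (SE 0.472, adjusted p = 1.48e-07) in atria, and the difference between tissues was 0.16 (SE 0.668, adjusted p = 0.890) with a 95% interval of -1.22 to 1.54. With a pseudocount of 1 that difference turned to -1.12 (adjusted p = 0.00354). SAN exceeded atria by 2.29 (SE 0.472, adjusted p = 0.000507) with CN03, 2.13 (SE 0.472, adjusted p = 0.000806) with vehicle and 2.59 (SE 0.472, adjusted p = 0.000133) at t0, and with a pseudocount of 1 the CN03 value was 0.71.

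CDH10, known from brain, was at -2.13, -2.82, -1.37 and -1.15 with CN03, 1.35, 0.80, 1.13 and 1.70 with vehicle, and 1.31, 1.31, 0.72 and 0.88 at t0 in SAN. In atria, CDH10 was at -1.92, -1.98, -1.41 and -1.50 with CN03, 0.16, 0.79, 0.84 and -0.38 with vehicle, and 1.91, 0.37, 0.44 and 0.40 at t0. All 8 CN03 pools were below 0 and below all other pools of their tissue. It fell with log2 fold changes of -3.11 (SE 0.376, adjusted p = 1.15e-07) in SAN and -2.06 (SE 0.376, adjusted p = 3.56e-05) in atria. CDH20, known in chick from spinal motor neurons, was at -0.16, -0.65, -0.76 and 0.25 with CN03, 2.41, 2.23, 2.33 and 1.76 with vehicle, and 1.08, 1.09, 0.98 and 1.05 at t0 in SAN. In atria, CDH20 was at -3.19, -2.12, -1.67 and -1.02 with CN03, 0.23, -0.19, 0.48 and 1.12 with vehicle, and -0.11, -0.12, -1.13 and 0.35 at t0. Vehicle pools of SAN were above all other libraries, and CN03 pools below the vehicle and fresh pools of SAN. With CN03 it fell with log2 fold changes of -2.51 (SE 0.375, adjusted p = 2.56e-06) in SAN and -2.41 (SE 0.375, adjusted p = 4.30e-06) in atria, and in SAN it rose with vehicle over t0 by 1.13 (SE 0.375, adjusted p = 0.0147). With a pseudocount of 1, the atrial values of CDH10 and CDH20 were -0.82 and -0.88, and the SAN culture value of CDH20 was 0.85.

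CDH8, also known from brain, was at 1.72, 0.83, 1.41 and 1.32 with CN03, 2.68, 2.46, 2.97 and 2.93 with vehicle, and 3.61, 3.04, 2.57 and 2.91 at t0 in SAN. In atria, CDH8 was at 1.29, 0.85, 1.16 and 1.74 with CN03, 3.45, 3.78, 3.12 and 3.62 with vehicle, and 2.65, 2.45, 3.16 and 3.11 at t0. In each tissue the CN03 pools were the lowest. The log2 fold changes were -1.44 (SE 0.232, adjusted p = 7.19e-06) in SAN and -2.23 (SE 0.232, adjusted p = 8.30e-09) in atria, and under quantile normalization the SAN value was -0.95. CDH6, a cadherin of neural crest and kidney, was at -0.36, -0.09, 0.25 and 0.34 with CN03, 1.25, 1.94, 1.88 and 0.79 with vehicle, and 3.26, 4.55, 3.45 and 2.94 at t0 in SAN. In atria, CDH6 was at -0.40, 0.82, 0.24 and -0.65 with CN03, 0.44, 1.55, 1.12 and 0.47 with vehicle, and 3.88, 4.32, 4.18 and 3.29 at t0. Fresh pools stood above all cultured pools in both tissues. With vehicle culture CDH6 fell with log2 fold changes of -2.08 (SE 0.360, adjusted p = 4.34e-05) in SAN and -3.02 (SE 0.360, adjusted p = 1.65e-07) in atria. With CN03 against vehicle it fell in SAN, with a log2 fold change of -1.43 (SE 0.360, adjusted p = 0.00113), and had -0.89 (SE 0.360, adjusted p = 0.0297) in atria with overlapping pools. The SAN value was -0.90 with a pseudocount of 1 and -0.80 under quantile normalization, and the atrial one -1.17 without replicate 2 of CN03-treated atria and -1.05 and -1.04 without replicates 1 and 4 of vehicle-treated atria.

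CDH18, another cadherin of the nervous system, was at -1.17, -2.96, -2.17 and -2.09 with CN03, -2.04, -1.97, -0.08 and -2.02 with vehicle, and 0.35, 1.60, 0.74 and 0.45 at t0 in SAN. In atria, CDH18 was at -1.55, -1.34, -0.91 and -1.54 with CN03, -1.99, -2.57, -1.12 and -0.81 with vehicle, and 0.44, -0.28, 0.98 and -0.12 at t0. Within each tissue, fresh pools were above all cultured pools. The log2 fold change with vehicle culture was -2.31 (SE 0.474, adjusted p = 0.000287) in SAN and -1.88 (SE 0.474, adjusted p = 0.00162) in atria (-0.98 and -0.72 with a pseudocount of 1), and CN03 against vehicle gave -0.57 and 0.29 (adjusted p = 0.283 and 0.599). CDH7, a type II cadherin of chick neural crest, fell with vehicle culture as well, with log2 fold changes of -1.49 in SAN and -1.89 in atria (adjusted p = 0.000643 and 3.57e-05). Of 5 neural crest, glia and neuron markers measured, 0 were higher and 1 lower with CN03 in SAN, and 1 higher and 1 lower in atria.

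CDH17 (LI-cadherin, known in mammals from intestine and liver) was at 1.14, 0.89, 1.48 and 1.22 with CN03, 1.87, 1.75, 1.77 and 1.46 with vehicle, and 1.57, 1.27, 1.18 and 0.75 at t0 in SAN. In atria, CDH17 was at -0.56, -0.87, -1.08 and -1.26 with CN03, -1.67, -1.45, -1.12 and -1.49 with vehicle, and -0.96, -0.21, -1.53 and -0.57 at t0. All SAN pools were above 0 and all atrial pools below it. SAN exceeded atria by 2.13 (SE 0.257, adjusted p = 8.83e-07) with CN03, 3.14 (SE 0.257, adjusted p = 1.34e-09) with vehicle and 2.01 (SE 0.257, adjusted p = 1.34e-06) at t0. Its CN03 response had a difference between tissues of -1.02 (SE 0.363, adjusted p = 0.0399), which was -0.97 (adjusted p = 0.0508) under median centring and missed the threshold when any 1 of 11 of the 16 pools compared (adjusted p = 0.0538 to 0.0846) was left out, the exceptions being replicates 3 and 4 of CN03-treated and 3 of vehicle-treated atria and replicates 3 of CN03-treated and 4 of vehicle-treated SAN. CDH23, which with PCDH15 forms the tip links of hair cells in the inner ear, was at -3.03, -1.07, -0.77 and -0.85 with CN03, 0.09, 0.03, 0.63 and -0.44 with vehicle, and 2.02, 2.42, 1.97 and 1.88 at t0 in SAN. In atria, CDH23 was at -3.44, -0.09, -0.58 and -1.66 with CN03, -1.95, -0.91, -1.08 and -0.54 with vehicle, and 0.59, 0.41, 0.18 and 0.51 at t0. Replicate 1 of each CN03 group was lowest. It fell with CN03 in SAN, with a log2 fold change of -1.51 (SE 0.535, adjusted p = 0.0150), and without replicate 1 of that group the value was -0.98 (adjusted p = 0.0901). With a pseudocount of 1 it was -0.54 and under quantile normalization -0.51. With vehicle culture it fell with a log2 fold change of -1.99 (SE 0.535, adjusted p = 0.00340) in SAN and -1.54 (SE 0.535, adjusted p = 0.0163) in atria, and the atrial fall was -0.66 with a pseudocount of 1 and -1.27 (adjusted p = 0.0640) without replicate 1 of vehicle-treated atria. PCDH15 fell with CN03 in both tissues, with -1.46 (SE 0.365, adjusted p = 0.00108) in SAN and -1.16 (SE 0.365, adjusted p = 0.00668) in atria. These were -0.81 and -0.58 with a pseudocount of 1 and -0.79 and -0.70 under quantile normalization, and the atrial one -0.97 without replicate 1 of CN03-treated atria.

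**Figure D3:**
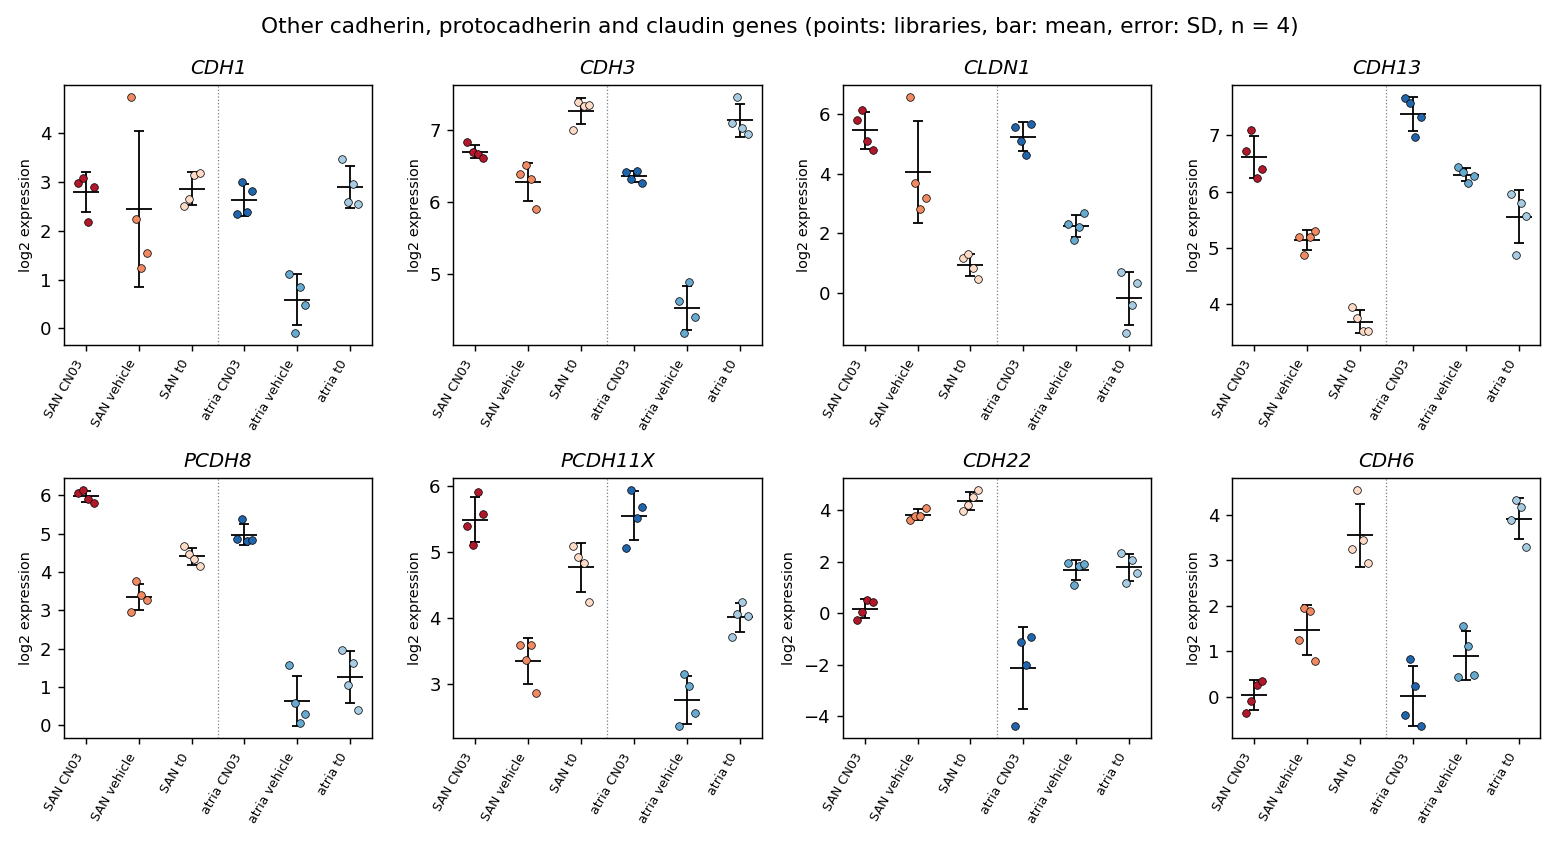
Log2 expression (vertical axes, each with its own range) of 8 further members in the 6 groups, with a point for each library and the mean and SD of the 4 libraries. CDH1 and CDH3 are lowest in vehicle-treated atria, PCDH8 and PCDH11X are higher with CN03 than with vehicle, CDH22 is lower, and the vehicle-treated SAN pool at 4.75 for CDH1 and 6.58 for CLDN1 is replicate 1.

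Among protocadherins, PCDH8 had the largest rise of any member called with CN03 in either tissue. In SAN, PCDH8 was at 6.05, 6.14, 5.91 and 5.81 with CN03, 2.95, 3.76, 3.41 and 3.26 with vehicle, and 4.68, 4.47, 4.34 and 4.15 at t0. In atria, PCDH8 was at 4.86, 5.38, 4.80 and 4.84 with CN03, 1.57, 0.59, 0.06 and 0.30 with vehicle, and 1.97, 1.04, 1.62 and 0.40 at t0. CN03 pools exceeded all others of their tissue, and each SAN group lay above the atrial group of the same condition. It rose by 2.63 (SE 0.284, adjusted p = 1.85e-08) in SAN and 4.34 (SE 0.284, adjusted p = 2.54e-12) in atria, and these responses differed by -1.71 (SE 0.401, adjusted p = 0.00272). SAN exceeded atria by 1.01 (SE 0.284, adjusted p = 0.00727) with CN03, 2.72 (SE 0.284, adjusted p = 6.13e-08) with vehicle and 3.15 (SE 0.284, adjusted p = 6.45e-09) at t0. The CN03 value stood at the fold limit and was 0.95 to 0.98 when any 1 of 5 of the 8 pools compared was left out. PCDH8 is a protocadherin known in vertebrates from paraxial mesoderm and from synapses.

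PCDH11X (a protocadherin of the delta group, known from brain) was at 5.39, 5.10, 5.91 and 5.57 with CN03, 3.59, 3.36, 3.60 and 2.86 with vehicle, and 5.09, 4.92, 4.84 and 4.24 at t0 in SAN. In atria, PCDH11X was at 5.06, 5.94, 5.52 and 5.69 with CN03, 2.36, 3.15, 2.97 and 2.57 with vehicle, and 3.71, 4.06, 4.25 and 4.03 at t0. In both tissues vehicle pools were lowest. It rose with CN03 by 2.14 (SE 0.219, adjusted p = 7.78e-09) in SAN and 2.79 (SE 0.219, adjusted p = 6.69e-11) in atria, and fell with vehicle culture with log2 fold changes of -1.42 (SE 0.219, adjusted p = 1.07e-05) in SAN and -1.25 (SE 0.219, adjusted p = 3.59e-05) in atria. PCDH19, which lies next to it among members on chromosome 4 and is known from human epilepsy, rose with CN03 by 1.32 (SE 0.155, adjusted p = 6.96e-08) in SAN and 1.65 (SE 0.155, adjusted p = 1.48e-09) in atria.

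PCDH9 (of the delta group as well) was at 5.0, 4.20, 4.61 and 4.65 with CN03, 3.29, 2.34, 3.21 and 2.88 with vehicle, and 2.51, 1.73, 2.30 and 2.47 at t0 in SAN. In atria, PCDH9 was at 3.79, 4.67, 4.55 and 4.23 with CN03, 2.26, 2.43, 2.77 and 2.86 with vehicle, and 0.57, 1.44, 1.04 and 1.21 at t0. CN03 pools were highest in each tissue, and atrial fresh pools lowest. With CN03 it rose by 1.69 (SE 0.239, adjusted p = 1.23e-06) in SAN and 1.73 (SE 0.239, adjusted p = 7.33e-07) in atria, and with vehicle over t0 by 1.51 (SE 0.239, adjusted p = 9.38e-06) in atria, beside 0.68 (SE 0.239, adjusted p = 0.0208) in SAN. PCDH10 (OL-protocadherin) was at 1.67, 1.85, 2.02 and 2.09 with CN03, 2.16, 2.10, 2.17 and 1.73 with vehicle, and 1.95, 2.07, 1.44 and 1.98 at t0 in SAN. In atria, PCDH10 was at -1.04, 0.91, -0.18 and -0.30 with CN03, 0.49, 0.08, 0.66 and 0.49 with vehicle, and -1.46, -1.75, -0.89 and -1.56 at t0. SAN pools lay above all atrial pools, and the atrial fresh pools below all atrial vehicle pools. SAN exceeded atria by 2.06 (SE 0.286, adjusted p = 5.56e-06) with CN03, 1.61 (SE 0.286, adjusted p = 7.81e-05) with vehicle and 3.28 (SE 0.286, adjusted p = 3.83e-09) at t0. It rose in atria with vehicle culture, by 1.84 (SE 0.286, adjusted p = 7.20e-06), and the culture response of SAN minus that of atria was -1.67 (SE 0.404, adjusted p = 0.00729). These were, with a pseudocount of 1, 0.77 and -0.63 (adjusted p = 0.000173 and 0.0574), and neither was called.

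PCDH1 was at 1.21, 1.12, 1.06 and 0.91 with CN03, 3.42, 3.11, 3.61 and 3.12 with vehicle, and 3.09, 3.38, 3.00 and 2.64 at t0 in SAN. In atria, PCDH1 was at 1.02, 0.80, 0.47 and 0.47 with CN03, 1.00, 1.56, 1.23 and 1.34 with vehicle, and 2.34, 1.53, 1.53 and 1.37 at t0. In SAN the CN03 pools were more than 1 log2 unit below all others. It fell with CN03 in SAN with a log2 fold change of -2.24 (SE 0.203, adjusted p = 1.07e-09), beside -0.59 (SE 0.203, adjusted p = 0.0118) in atria, a difference of -1.64 (SE 0.287, adjusted p = 0.000187). SAN exceeded atria by 2.03 with vehicle and 1.34 at t0 (adjusted p = 3.34e-08 and 1.39e-05), and with CN03 the value was 0.38 (adjusted p = 0.143). Its neighbour on chromosome 13, PCDH12, known in mammals from endothelium, fell with CN03 in SAN with -1.10 (SE 0.252, adjusted p = 0.000469) and had 0.25 (SE 0.252, adjusted p = 0.380) in atria, a difference of -1.35 (SE 0.356, adjusted p = 0.00672). The SAN value was -0.91 with a pseudocount of 1, -0.65 under quantile normalization and -0.91 without replicate 4 of CN03-treated SAN. For the endothelial markers the difference between tissues had the same sign, as all 8 had a lower CN03 response in SAN than in atria. Within tissues, 4 of 8 were called higher with CN03 in atria, and 1 higher and 1 lower in SAN. The median log2 fold change of these markers was 0.82 in atria and -0.33 in SAN, beside 0.25 and -1.10 for PCDH12. Their summed linear value in atria was 518 to 660 with CN03 and 289 to 377 with vehicle, and in SAN 452 to 519 with CN03 and 545 to 604 with vehicle. Their part in the PCDH12 result was not tested.

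PCDHGC3, of the gamma cluster, was at 7.33, 7.52, 7.49 and 7.56 with CN03, 7.66, 7.89, 7.66 and 7.59 with vehicle, and 7.75, 7.82, 7.84 and 7.70 at t0 in SAN. In atria, PCDHGC3 was at 7.66, 7.67, 7.72 and 7.55 with CN03, 6.88, 7.25, 7.22 and 6.99 with vehicle, and 7.50, 7.23, 7.26 and 7.28 at t0. The CN03 pools were below the vehicle pools in SAN and above them in atria. The log2 fold changes were -0.22 (SE 0.0836, adjusted p = 0.0205) in SAN and 0.56 (SE 0.0836, adjusted p = 2.08e-06) in atria, under the fold limit, and differed by -0.79 (SE 0.118, adjusted p = 3.60e-05). The other protocadherins PCDH7, PCDH17, PCDH18, PCDH20 and PCDHA6 were not called with CN03, and their log2 fold changes were between -0.32 (PCDHA6) and 0.49 (PCDH18) in SAN. PCDH18 had a CN03 response that differed between tissues, by 0.48 (SE 0.157, adjusted p = 0.0263), which missed the threshold with the compared groups alone (adjusted p = 0.0603) and when any 1 of 6 of the 16 pools compared (adjusted p = 0.0505 to 0.0665) was left out, namely replicates 1 and 4 of CN03-treated and 2 and 3 of vehicle-treated atria or replicates 3 of CN03-treated and 1 of vehicle-treated SAN.

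Of the 8 claudins, CLDN1 rose and CLDN15 fell in both tissues with CN03. CLDN1 (a barrier-forming claudin of skin and other epithelia) was at 5.80, 6.13, 5.09 and 4.80 with CN03, 6.58, 3.69, 2.81 and 3.17 with vehicle, and 1.16, 1.30, 0.82 and 0.46 at t0 in SAN. In atria, CLDN1 was at 5.58, 5.10, 4.63 and 5.66 with CN03, 2.30, 1.76, 2.21 and 2.69 with vehicle, and 0.68, -1.36, -0.42 and 0.33 at t0. In atria the 3 conditions did not overlap, and in SAN replicate 1 of the vehicle group lay above the CN03 pools while the other vehicle pools lay between CN03 and t0. In atria it rose by 3.00 (SE 0.554, adjusted p = 3.98e-05) with CN03 and by 2.43 (SE 0.554, adjusted p = 0.000617) with vehicle over t0. In SAN it rose with CN03 by 1.39 (SE 0.554, adjusted p = 0.0288) over all pools and by 2.23 (SE 0.389, adjusted p = 2.60e-05) without replicate 1 of the vehicle group. That call ended, at 0.97 to 1.28 (adjusted p = 0.0676 to 0.130), without replicate 1 or 2 of the CN03 group or 2, 3 or 4 of the vehicle group, and with the compared groups alone (adjusted p = 0.0895). With vehicle over t0 in SAN it rose by 3.13 (SE 0.554, adjusted p = 5.84e-05) over all pools and by 2.29 (SE 0.389, adjusted p = 4.84e-05) without it. SAN exceeded atria with vehicle by 1.82 (SE 0.554, adjusted p = 0.0102) over all pools, a call that ended without it, at 0.99 (SE 0.389).

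CLDN11 (the claudin of myelin and of the testis barrier in mammals) was at 2.38, 2.35, 2.02 and 2.46 with CN03, 4.26, 4.77, 4.19 and 4.46 with vehicle, and 3.21, 3.51, 3.40 and 3.17 at t0 in SAN. In atria, CLDN11 was at 1.33, 1.15, 1.19 and 1.12 with CN03, 1.98, 1.95, 2.15 and 2.10 with vehicle, and 2.97, 2.14, 2.52 and 2.57 at t0. In each tissue the CN03 pools were lowest, and the SAN vehicle pools highest of all. It fell with CN03 in SAN with a log2 fold change of -2.12 (SE 0.154, adjusted p = 2.48e-11), beside -0.85 (SE 0.154, adjusted p = 3.34e-05) in atria, and these differed by -1.27 (SE 0.218, adjusted p = 0.000150). With vehicle over t0 it rose in SAN by 1.10 (SE 0.154, adjusted p = 3.04e-06) (0.98 without replicate 2 of the vehicle group), beside -0.51 (SE 0.154, adjusted p = 0.00704) in atria, a difference of 1.61 (SE 0.218, adjusted p = 2.13e-05). Both differences use the same vehicle libraries, with opposite sign. SAN exceeded atria by 2.38 (SE 0.154, adjusted p = 3.28e-11) with vehicle and 1.10 (SE 0.154, adjusted p = 5.95e-06) with CN03, where it was 0.85 with a pseudocount of 1.

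CLDN15 (a channel-forming claudin of intestine) was at -2.54, -0.67, -1.93 and -1.93 with CN03, -0.38, -0.73, 0.09 and -0.42 with vehicle, and 0.43, 0.19, 0.07 and 0.30 at t0 in SAN. In atria, CLDN15 was at -1.58, -1.74, -3.05 and -2.49 with CN03, 0.22, 0.29, 0.40 and 0.01 with vehicle, and -0.06, 0.17, -0.17 and -0.44 at t0. Atrial CN03 pools were below all other atrial pools, and in SAN 1 CN03 pool reached the vehicle range. It fell with log2 fold changes of -1.40 (SE 0.346, adjusted p = 0.000929) in SAN and -2.44 (SE 0.346, adjusted p = 1.08e-06) in atria, which were -0.44 and -0.82 with a pseudocount of 1, and in SAN it was -0.26 (adjusted p = 0.498) under quantile normalization. CLDN2, CLDN9, CLDN12, CLDN19 and CLDN34 were not called with CN03 in either tissue. CLDN2, a channel-forming claudin, was lower in SAN than in atria at t0 with a log2 fold change of -1.11 (SE 0.182, adjusted p = 3.73e-05) (-0.98 without replicate 2 of fresh atria), and CLDN9 fell with vehicle culture in atria with a log2 fold change of -1.26 (SE 0.201, adjusted p = 1.09e-05).

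The CN03 response differed between tissues, at an adjusted p under 0.05 without a fold limit, for 14 members: 6 with a higher and 8 with a lower response in SAN than in atria, beside 11.7% and 15.4% of all genes. The 6 were CDH2, CTNNA3, CTNNB1, CTNNBL1, DSG2 and PCDH18, and the 8 were CDH3, CDH17, CLDN11, CLDN12, PCDH1, PCDH8, PCDH12 and PCDHGC3. Under quantile normalization the split was 10 higher and 7 lower. CLDN12 then missed the threshold (-0.38, adjusted p = 0.0592), as it did (adjusted p = 0.0567 to 0.0725) when replicate 3 of CN03-treated or 1 or 4 of vehicle-treated atria, or replicate 1 or 4 of CN03-treated or 3 of vehicle-treated SAN, was left out. All 3 catenin or catenin-like genes among the 14 members had the higher response in SAN, but in SAN itself only CTNNA3 was called with CN03. There CTNNB1 was at -0.01 and CTNNBL1, a catenin by name only, at 0.17. The culture response was higher in SAN for 5 members and lower for 2, beside 6.89% and 6.09% of all genes. The CN03 and culture interactions share the vehicle libraries, with opposite sign. The median interaction over members was -0.13 for CN03 and 0.19 for culture, beside -0.04 and -0.00 over all genes.

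**Figure D4:**
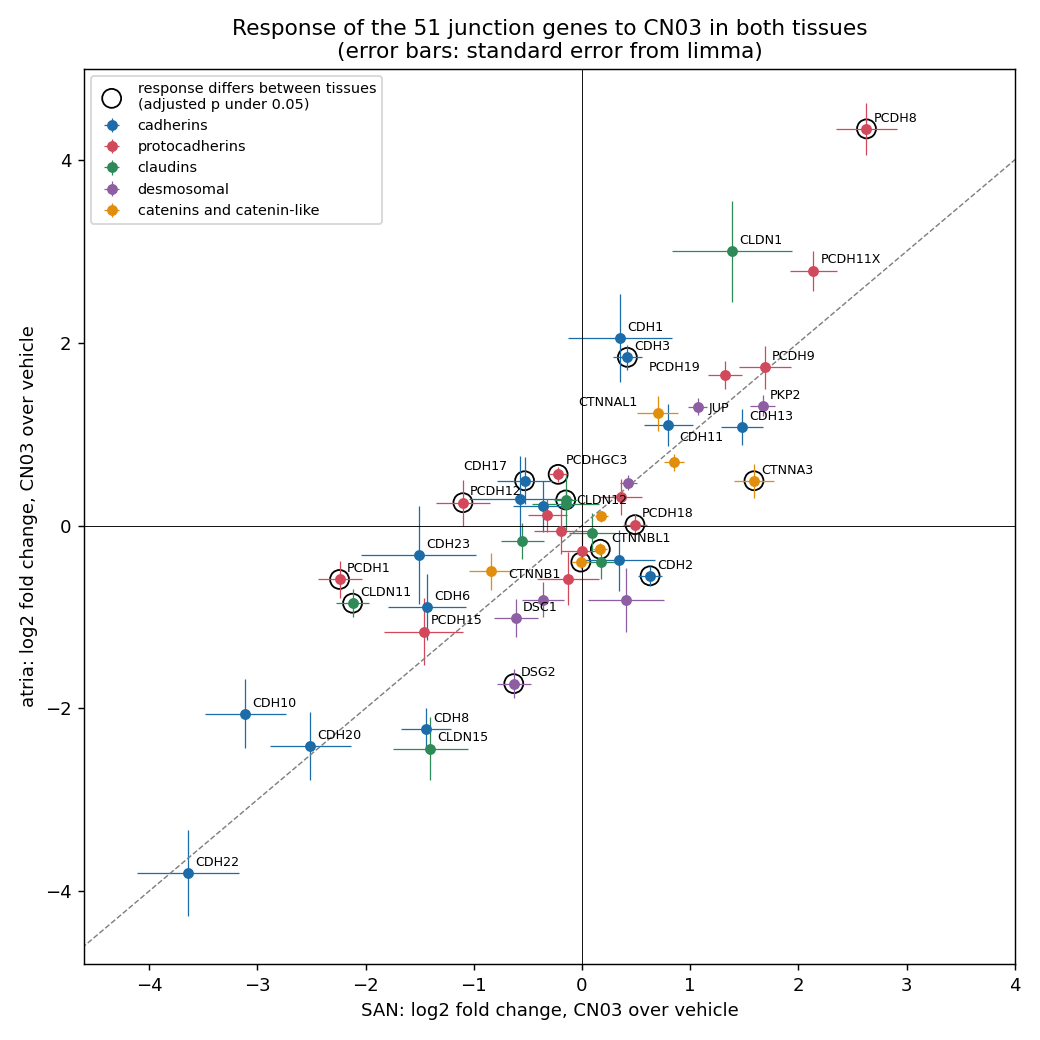
Log2 fold change of CN03 over vehicle in SAN (horizontal) and atria (vertical) for the 51 members, coloured by family, with standard errors. The dashed line marks equal change, circles mark the 14 members whose response differed between tissues, and names are given for members called in any of the 3 contrasts; CDH2 lies at 0.63 in SAN and -0.55 in atria, while PCDH8 (2.63 in SAN) and CDH22 (-3.64 in SAN) lie at the ends of the range. CTNNB1 changes sign in SAN under median centring.

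**Figure D5:**
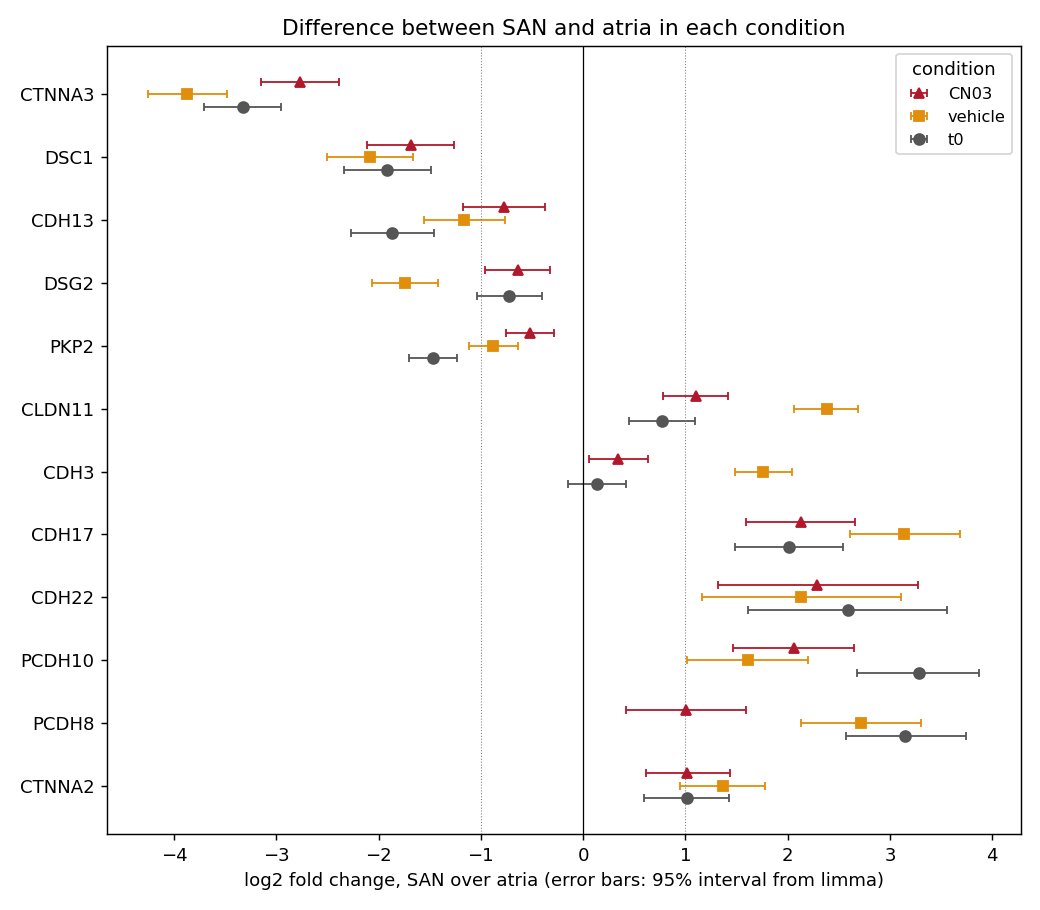
Log2 fold change of SAN over atria (horizontal, 95% intervals) for 12 members with CN03, with vehicle and at t0. CTNNA3 and DSC1 lie below -1 in all 3 conditions, CDH17, CDH22, PCDH8, PCDH10 and CTNNA2 above 1, and CDH3 is at 1.76 with vehicle but at 0.34 with CN03 and 0.14 at t0.

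Of 52 listed symbols of cell junction partners that are not members, some of them older names of genes also listed, 40 were measured. With CN03, 7 were higher and 6 lower in SAN (median log2 fold change 0.09), beside 10.2% and 17.1% of all genes and an all-gene median of -0.06. In atria 10 were higher and 6 lower (median 0.18), beside 13.8% and 15.6% of all genes and a median of -0.01. Of the 40, 7 were higher and 5 lower in both tissues, beside 8.18% and 11.8% of all genes. The 7 included VCL (vinculin, which reinforces alpha-catenin on actin) at 1.99 in SAN and 2.26 in atria, FAT1 and LMO7. Among them were also XIRP1 (a protein of the intercalated disc) at 2.46 and 2.32, and DES (desmin, the filament that desmosomes hold) at 1.97 and 2.91. PPL, another of the 7, was at 1.67 and 1.01, close to the fold limit in atria. The 5 were the protocadherin-like FAT2 and FAT3 at -3.10 and -1.93 in SAN and -6.18 and -3.20 in atria, IGSF5, JAM3, and CDHR3, which was at -1.03 in atria.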

How the data were processed

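Bulk RNA of 24 pooled libraries was sequenced by the authors with the Illumina Stranded Total RNA kit with Ribo-Zero on a NovaSeq X Plus. The submitters' processing notes and the study's methods name FastQC, kallisto, edgeR for filtering and limma, with the build GRCg7b. Their versions and the normalization are not given in the sources used here. The deposited table holds log2 expression values made by the authors, with 12422 gene symbols. A further row without a symbol held 6.58% to 17.9% of the linear signal and was left out. Depth is unknown, so no counting error can be given, and 4 pools per group limit the precision.

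The values were used as deposited. A linear model of the 6 groups was fitted in limma 3.58.1 (R 4.3.3) with a mean-variance trend, over all genes and all 24 libraries, with 18 residual degrees of freedom. Benjamini-Hochberg adjustment ran over all genes. SE is the moderated standard error. A gene was called at an adjusted p under 0.05 and an absolute log2 fold change above 1, and interactions at an adjusted p under 0.05. Levels were not compared between genes, apart from the median level of the members, since correction for length is not stated. Marker sums add linear values. Gene positions came from the RefSeq gene table of the same build. The fit was tested on simulated data.

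Members with every library value were 13 junction genes of heart muscle that were measured of 14 listed, the 6 largest rises and falls among called members for CN03 in each tissue, the 3 largest in each other contrast, and the 6 smallest adjusted p in the CN03 interaction. The members and lists were chosen with earlier results of these data known. The methods call the pools biological replicates and do not say whether SAN and atria of equal number came from the same embryos or day, so p-values measure the spread between these pools. Deviations of same-numbered pools, over 10349 genes with a mean above 2, correlated above 0.1 in every pair for CN03 against vehicle in atria (mean r = 0.266, lowest 0.246) and for SAN against atria at t0 (mean r = 0.272, lowest 0.112), and not in every pair elsewhere. Alternatives were a pseudocount, a filter on low values, quantile normalization, median centring, no trend, only the compared groups, no fold limit, a replicate block and leaving out each library. Leaving out replicate 1 of vehicle-treated SAN for CDH1, CLDN1 and EPCAM was chosen after seeing the data. Figures were drawn with matplotlib 3.10.9.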

Additional observations from a re-analysis of the deposited data

Results flagged for a closer look

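Single pools far from the other 3 of their group were found in 14 of 198 groups examined for the members given with every library value, where chance flags about 1 in 20 groups. They were CDH10 at 1.91 in replicate 1 of fresh atria, CDH18 at -0.08 in replicate 3 of vehicle-treated SAN, CDH22 at 1.09 in replicate 2 of vehicle-treated atria, and CDH23 at -3.03 in replicate 1 of CN03-treated SAN. CDH3 was at 7.0 and PKP4 at 6.22 in replicate 1 of fresh SAN. Replicate 4 of CN03-treated atria had CTNNA1 at 8.88 and CTNND1 at 8.17, and DSP was at 6.63 in replicate 3 of that group and at 8.12 in replicate 2 of vehicle-treated atria. JUP was at 7.36 in replicate 2 and PCDH1 at 2.34 in replicate 1 of fresh atria. PCDH10 was at 1.73 in replicate 4 of vehicle-treated SAN, and PCDH8 at 5.38 in replicate 2 of CN03-treated atria. The limit was on the gap to the nearest other pool as a share of the group's range, so small gaps could be flagged. CTNNA1 at 8.88, for example, lay beside 8.97 to 8.99 in the other pools. CDH1 and CLDN1 in replicate 1 of vehicle-treated SAN did not meet this limit, although both lay more than 2 log2 units above the other pools.

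The CN03 response of SAN minus that of atria, tested by limma's interaction term, was -1.71 for PCDH8 (adjusted p = 0.00272), -1.64 for PCDH1 (0.000187), -1.42 for CDH3 (1.26e-05), -1.35 for PCDH12 (0.00672), -1.27 for CLDN11 (0.000150), -1.02 for CDH17 (0.0399), -0.79 for PCDHGC3 (3.60e-05) and -0.43 for CLDN12 (0.0319). It was 0.39 for CTNNB1 (0.0112), 0.43 for CTNNBL1 (0.00135), 0.48 for PCDH18 (0.0263), 1.10 for CTNNA3 (0.00299), 1.10 for DSG2 (0.000628) and 1.19 for CDH2 (9.79e-06). The culture response of SAN minus that of atria was -1.67 for PCDH10 (adjusted p = 0.00729), -1.02 for DSG2 (0.00288), 0.59 for PKP2 (0.0176), 0.78 for CLDN2 (0.0480), 1.13 for CDH17 (0.0403), 1.61 for CLDN11 (2.13e-05) and 1.62 for CDH3 (5.44e-06).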

How the results depend on the processing

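Counts of called members were within 1.5 times under all alternatives other than the following, and the cause was not tested. A pseudocount of 1, which shrinks the changes of genes with low values by construction, left 6 members lower with CN03 in SAN and 3 in atria, 7 lower with vehicle over t0 in SAN, and 2 higher in SAN than in atria with CN03. Of all 12422 genes it left 1605, 1458, 482 and 223 in these comparisons, beside 2127, 1937, 695 and 477 as deposited. Quantile normalization left 5 lower with CN03 in SAN and gave 7 lower in SAN than in atria with vehicle and 10 with a higher CN03 response in SAN. It also moved all genes, to 1560 higher and 1622 lower with CN03 in SAN, 596 and 502 between SAN and atria at t0, 719 and 630 with vehicle, and 1784 and 1538 in the CN03 interaction, beside 1273 and 2127, 852 and 356, 952 and 418, and 1457 and 1914 in the values as deposited. Without the fold limit, 18 members were higher with CN03 in SAN and 17 lower in atria, 22 were lower with vehicle over t0 in SAN, and 7 higher and 30 lower in atria. Of all 12422 genes, 4150 were then higher with CN03 in SAN and 4567 lower in atria. With vehicle over t0, 3243 of all genes were lower in SAN, and 3627 higher and 3698 lower in atria. Without the fold limit, SAN against atria gave 10 members lower at t0, 23 higher and 10 lower with vehicle, and 14 higher and 7 lower with CN03. For all genes these counts were 2129 at t0, 2828 and 2461 with vehicle, and 2211 and 2505 with CN03. A fit of the compared groups alone gave 3 members with a higher culture response in SAN, and leaving out single pools gave 3 to 7, with 3 without replicate 4 of fresh atria, replicate 1 or 4 of vehicle-treated atria, replicate 3 of fresh SAN or replicate 1 of vehicle-treated SAN.

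With a replicate block the counts were 14 higher and 4 lower for SAN against atria with vehicle and 6 higher and 3 lower for the culture interaction, and in the other 7 comparisons the counts were those without the block (9 higher and 11 lower with CN03 in SAN, 12 and 8 in atria). With the block CDH23 passed between tissues with vehicle (1.20, adjusted p = 0.0398), and CDH8 (-0.92) and PCDH20 (0.99) in the culture interaction. It changed no other call of a member. Same-numbered SAN pools with CN03 and vehicle correlated with a mean r of 0.212 (lowest -0.0906). Outside the replicate block, same-numbered pools were not treated as pairs in any comparison. This includes CN03 against vehicle in atria and SAN against atria at t0, where every pair correlated.

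Signs turned for CDH4 (0.05) and CTNNA1 (-0.10 in SAN, -0.20 in atria) under quantile normalization, for CTNNB1 in SAN under median centring (0.04) and without replicates 2 (0.00) and 4 (0.01) of CN03-treated SAN or replicate 3 of vehicle-treated SAN (0.03), with a range of -0.06 to 0.03 over single pools left out, and for the culture interaction of CLDN1 without replicate 1 of vehicle-treated SAN (-0.14). None of these was called as deposited. Under quantile normalization the calls ended for JUP (0.88 in SAN, 1.00 in atria), PKP2 (0.97), CDH11 (0.85) and CDH13 (0.82) in atria, and DSP passed in atria (-1.09). Among the members lower with CN03, a pseudocount of 1 ended the calls of CDH6 (-0.90), CDH23 (-0.54), CLDN15 (-0.44), PCDH12 (-0.91) and PCDH15 (-0.81) in SAN and of CDH10 (-0.82), CDH20 (-0.88), CLDN15 (-0.82), DSC1 (-0.95) and PCDH15 (-0.58) in atria. In the culture comparisons it ended, among others, those of CDH20 (0.85), CDH18 (-0.98), CTNNA3 (-0.97), PCDH8 (-0.99) and PCDH17 (-0.90) in SAN and of PCDH10 (0.77) in atria, and between tissues with CN03 those of CDH20 (0.50), CDH22 (0.71), CLDN11 (0.85), CTNNA2 (0.86) and PCDH8 (0.98). The smaller interactions depended on single pools. Of the 16 pools compared, leaving out any 1 of 11 ended the CN03 interaction of CDH17 (adjusted p = 0.0538 to 0.0846), any 1 of 6 that of PCDH18 (0.0505 to 0.0665) and any 1 of 6 that of CLDN12 (0.0567 to 0.0725), and any 1 of 11 ended the culture interactions of CDH17 and CLDN2. Single pools also ended culture calls in SAN of PCDH8 (-0.97 and -0.93) and PCDH17 (-0.89 and -0.86). With 4 pools a group and unknown depth, low values such as those of CDH10, CDH18 and CDH23 are the least certain.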
